A study of Homo sapiens with 8 samples.

Results

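The smooth muscle and contractile genes described here are ACTA2, TAGLN, CNN1, MYL9, TPM1, TPM2, CALD1, LMOD1, MYOCD and MYPN, 10 of the 60659 genes in the count table. They were chosen by their gene symbols, and with earlier results of these data known, so their own differences and calls are given as a description, and no p-value is given for them. Thin filaments of contractile cells are built from actin, here smooth muscle α-actin (ACTA2), and from tropomyosins (TPM1, TPM2), and leiomodin 1 (LMOD1) starts new actin filaments. Transgelin (TAGLN), calponin 1 (CNN1) and caldesmon (CALD1) bind these filaments, MYL9 is a regulatory light chain of myosin, and myopalladin (MYPN) is a protein of the Z-disc in striated muscle. Myocardin (MYOCD) is a coactivator of serum response factor (SRF), which binds CArG boxes at many contractile genes. In neuroblastoma, contractile and matrix genes are known from cells in a mesenchymal state, whereas HAND2 and GATA3 mark the adrenergic state.

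The libraries come from SK-N-SH, a human neuroblastoma cell line, after removal of ribosomal RNA, with 2 libraries in each of 4 groups. Cells of every group were kept in differentiation medium with 10 µM all-trans retinoic acid (ATRA), for 24 h according to the labels. The overexpression comparison set cells with FLAG-tagged ZMYND8 under a doxycycline (Dox) inducible promoter against parental cells, and Dox was given to both. The knockdown comparison set ZMYND8 KD cells against KD control cells, without Dox in the labels. The methods describe the overexpressing cells as a G418-selected lentiviral pool. They describe knockdown by lentiviral shRNA with doses for other cells, and how the SK-N-SH knockdown and its control were made is not given in the sources used here. They name no empty vector for the parental cells. Vector integration and selection therefore cannot be told apart from ZMYND8 in the overexpression comparison. The labels call the libraries biological replicates without naming separate cultures, so the errors cover the spread between these libraries, which may be technical.

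Each library held between 38316523 and 56256979 counts on genes. Levels are given as counts-per-million (CPM) after TMM scaling over the 8 libraries, and a log2 fold change (log2FC) carries its standard error (SE) with n = 2 libraries per group. A gene was called when its Benjamini-Hochberg adjusted p from the quasi-likelihood test of edgeR was below 0.05, its absolute log2FC was at least 1 and its mean normalized count was above 20. ZMYND8 itself averaged 71.3 CPM in parental and 4129 CPM in ZMYND8 OE cells, and 60.3 CPM in KD control and 31.4 CPM in ZMYND8 KD cells. The log2FC of ZMYND8 was 5.86 ± 0.0596 in the overexpression and -0.94 ± 0.0556 in the knockdown comparison. The whole adrenergic list, 12 markers, was counted in at least 1 library, although TH had at most 5 counts in any of them.

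Overexpression went with lower levels of most of the contractile genes. Of the 10 genes, 9 had enough counts to be tested, 7 of them were called lower (ACTA2, TPM1, TPM2, LMOD1, TAGLN, CALD1 and MYPN), MYOCD was called higher and CNN1 was not called. Among all 20835 genes tested, 6.84% were called lower, 11.8% higher and 18.6% in either direction, and 60.8% had an adjusted p below 0.05, as did 8 of the 9. Since the genes were chosen with this comparison known, nothing is read from the difference between these shares. MYOCD reached the minimum count for the test only in ZMYND8 OE libraries. MYPN reached it in both parental libraries, but fell short of it in ZMYND8 OE replicate 2, with 7 counts. The median log2FC was -1.26 over the 9 genes and 0.03 over all genes tested. In bulk RNA, fewer contractile cells and less contractile RNA per cell cannot be told apart.

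ACTA2 (ENSG00000107796, chr10:88935074-88991339, minus strand, GRCh38) encodes the actin that defines smooth muscle and myofibroblasts. It stood at 73.8 and 72.0 CPM in the parental libraries, 34.1 and 31.5 in ZMYND8 OE, 90.8 and 82.7 in KD control and 89.1 and 87.1 in ZMYND8 KD. The ZMYND8 OE libraries were below the others, and the ranges of KD control and ZMYND8 KD overlapped. The log2FC was -1.14 ± 0.0571 with overexpression, a level 2.20-fold lower, and 0.03 ± 0.0558 with knockdown. Genes on the other strand, FAS and ACTA2-AS1 among them, cover part of the ACTA2 exons (30.1% of their bases), and the strand setting of the counting was not given. FAS stood at 42.3 and 40.5 CPM in parental and 21.0 and 19.0 in ZMYND8 OE libraries, and the part of shared reads in the ACTA2 values was not tested.

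TPM1 (ENSG00000140416, chr15:63042632-63071915, plus strand) encodes an α-tropomyosin that is spliced into muscle and nonmuscle forms, which gene counts do not separate. It had 362 and 365 CPM in parental, 127 and 106.0 in ZMYND8 OE, 428 and 414 in KD control and 638 and 612 in ZMYND8 KD libraries. No groups overlapped, with ZMYND8 KD the highest and ZMYND8 OE the lowest. The log2FC was -1.63 ± 0.0760 with overexpression and 0.57 ± 0.0528 with knockdown, or 3.10-fold lower and 1.49-fold higher.

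TPM2 (ENSG00000198467, chr9:35681992-35690056, minus strand) encodes β-tropomyosin. It was counted at 58.9 and 52.6 CPM in parental, 24.7 and 21.3 in ZMYND8 OE, 232 and 215 in KD control and 205 and 211 in ZMYND8 KD libraries. Here both groups of the knockdown comparison lay above the parental cells, and KD control was just above ZMYND8 KD. The log2FC was -1.26 ± 0.0800 with overexpression and -0.10 ± 0.0532 with knockdown.

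LMOD1 (ENSG00000163431, chr1:201896456-201946588, minus strand) was the least abundant of these thin filament genes. Its values were 3.95 and 4.16 CPM in parental, 1.62 and 1.75 in ZMYND8 OE, 5.71 and 5.39 in KD control and 4.05 and 3.86 in ZMYND8 KD libraries. ZMYND8 OE was lowest and KD control highest, while the parental and ZMYND8 KD ranges overlapped. The log2FC was -1.26 ± 0.165 with overexpression and -0.49 ± 0.128 with knockdown, so LMOD1 was lower in both comparisons.

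**Figure D1:**
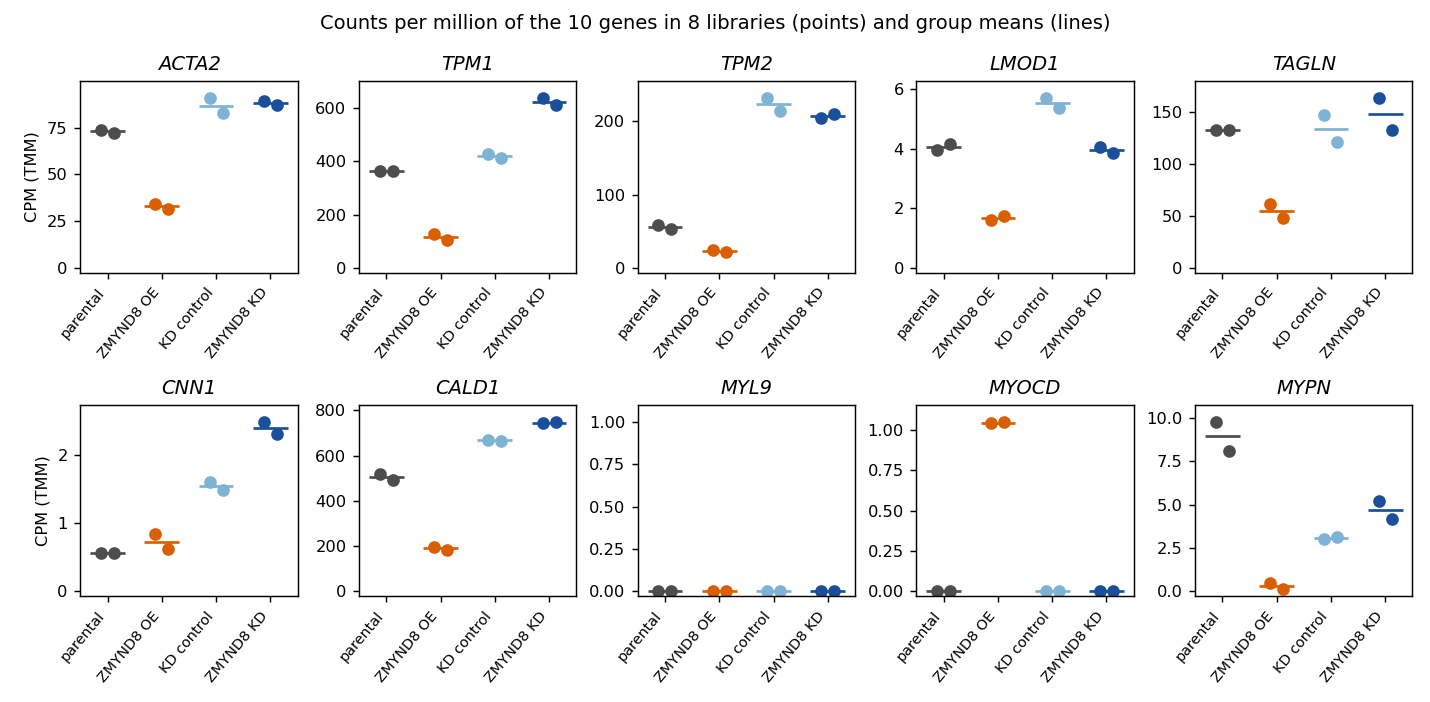
CPM (TMM scaled, linear axes) of each gene in the 8 libraries as points, with lines for the means of the 4 groups. For ACTA2, TPM1, TPM2, LMOD1, TAGLN, CALD1 and MYPN the ZMYND8 OE points lie below the parental points, MYOCD has points above 0 in ZMYND8 OE only, and MYL9 is at 0 counts in all 8 libraries.

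Of the genes that bind the filament, CALD1 (ENSG00000122786, chr7:134744252-134970729, plus strand) encodes caldesmon, which in smooth muscle inhibits the myosin ATPase. CALD1 stood at 517 and 494 CPM in parental, 198 and 182 in ZMYND8 OE, 669.7 and 666 in KD control and 742 and 750.1 in ZMYND8 KD libraries. The groups did not overlap, and the order was the same as for TPM1. The log2FC was -1.40 ± 0.0558 with overexpression and 0.16 ± 0.0502 with knockdown, the latter a 1.12-fold difference. CALD1 also has muscle and nonmuscle forms that were counted together.

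TAGLN (ENSG00000149591, chr11:117199370-117207464, plus strand) is an early marker of smooth muscle. It had 133 and 132 CPM in parental, 61.7 and 47.5 in ZMYND8 OE, 147 and 122 in KD control and 164 and 133 in ZMYND8 KD libraries. Only ZMYND8 OE lay apart, since the ranges of neighbours among the other groups overlapped. The log2FC was -1.27 ± 0.0961 with overexpression and 0.15 ± 0.102 with knockdown. The transcript ENSG00000280143 on the same strand covers 38.1% of the TAGLN exons, with at most 0.890 CPM in any library, and PCSK7 on the other strand covers part of them as well. PCSK7 stood at 93.2 and 97.4 CPM in parental and 82.8 and 79.3 in ZMYND8 OE libraries.

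CNN1 (ENSG00000130176, chr19:11538767-11550323, plus strand) encodes the calponin of differentiated smooth muscle, and it departed from the other filament genes. It had 0.565 and 0.561 CPM in parental, 0.836 and 0.614 in ZMYND8 OE, 1.60 and 1.48 in KD control and 2.48 and 2.30 in ZMYND8 KD libraries. Parental and ZMYND8 OE were lowest, with 24 and 29 counts against 45 and 27, and the highest values were in ZMYND8 KD. The log2FC was 0.38 ± 0.295 with overexpression, within the range of 0.14 to 0.58 that other settings gave, and 0.64 ± 0.176 with knockdown.

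MYL9 (ENSG00000101335, chr20:36541497-36551447, plus strand), the myosin light chain of smooth muscle, was listed at 0 counts in all 8 libraries. At these totals a count of 0 allows up to 0.0533 to 0.0783 CPM per library, counting error only. That limit holds for the counts in the table, and whether MYL9 RNA was absent or was not counted cannot be told from the files. Of its exonic 31-base sequences, 0.480% occur in transcripts of other genes, and none on alternate contigs of the genome. The nonmuscle light chains MYL12A and MYL12B had 300.2 and 302 CPM and 361 and 379 CPM in the parental libraries.

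MYOCD (ENSG00000141052, chr17:12665890-12768949, plus strand) was counted in the ZMYND8 OE libraries alone. It had 56 and 46 counts there, or 1.04 and 1.05 CPM, and 0 counts in each of the other 6 libraries. Against a floor of 3 counts per library, the ZMYND8 OE level was at least 16-fold higher than the parental level. The mean normalized count was 25.1, close to the threshold of 20, and without ZMYND8 OE replicate 1 or replicate 2 it came to 16.1 or 17.2, so the call was lost. The gene that encodes this coactivator was thus detected where the mean levels of ACTA2, TAGLN, CALD1, TPM1, TPM2 and LMOD1 were lowest.

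MYPN (ENSG00000138347, chr10:68106117-68212017, plus strand) showed the largest fold among the genes called lower. It had 9.77 and 8.09 CPM in parental, 0.465 and 0.159 in ZMYND8 OE, 3.03 and 3.13 in KD control and 5.23 and 4.17 in ZMYND8 KD libraries. The groups did not overlap, with parental the highest and ZMYND8 OE the lowest. Parental libraries held 415 and 418 counts and ZMYND8 OE libraries 25 and 7. The log2FC was -4.76 ± 0.281 with overexpression, or 27.0-fold lower, and it was -5.77 without ZMYND8 OE replicate 1 and -4.24 without replicate 2. With knockdown it was 0.61 ± 0.156, or 1.53-fold higher.

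**Figure D2:**
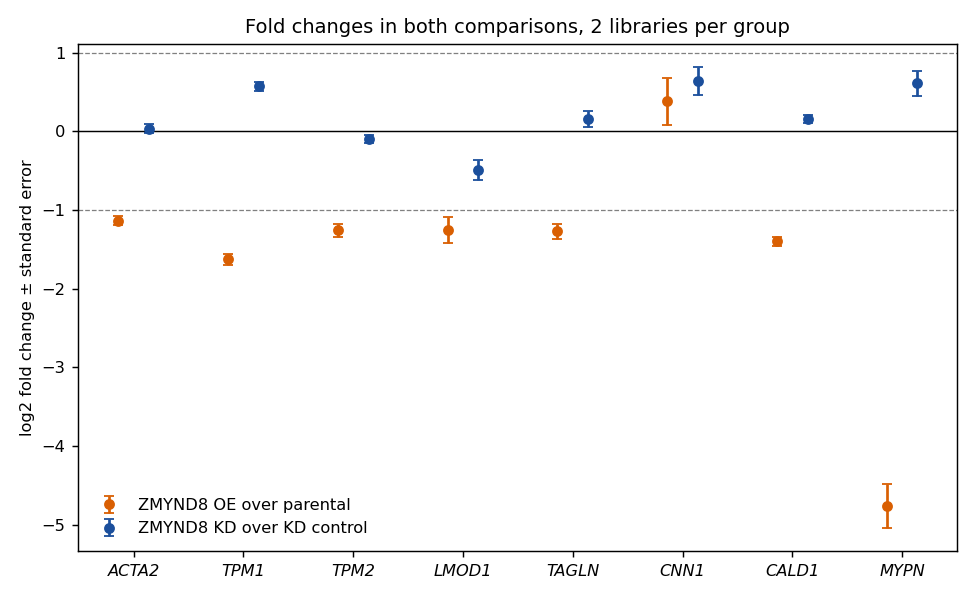
Log2 fold changes of 8 genes (points) with standard errors (bars) for ZMYND8 OE over parental cells and ZMYND8 KD over KD control cells, 2 libraries per group, with dashed lines at the fold threshold of 1. MYL9 and MYOCD are not drawn, 7 of the 8 overexpression values lie below -1, and the knockdown values lie between -0.49 and 0.64.

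Levels between genes were compared per kilobase of exon. In parental cells the mean was 51.4 CPM per kb for CALD1, 26.4 for TPM1, 24.5 for ACTA2, 20.3 for TAGLN and 17.5 for TPM2. MYPN (1.30 CPM per kb), LMOD1 (1.02) and CNN1 (0.198) were far lower. In KD control cells TPM2 led instead with 70.1 CPM per kb, followed by CALD1 with 67.8. In ZMYND8 OE cells CALD1 was again first with 19.3 CPM per kb and MYOCD stood at 0.118.

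Promoter windows of 300 bases, from 250 bases before to 50 after a transcription start (RefSeq, GRCh38.p14), were held for 7 of the 10 genes, 12 windows in all. TAGLN, MYL9 and MYOCD had none in the table. They were searched on both strands for the CArG box, in its strict consensus with no base off, and for the MCAT element CATTCC, which TEAD factors bind in many muscle genes. The strict CArG box was found in 0 of the 12 windows and in 1.29% of 35116 promoters of the same length. With 1 base off allowed, a search added after seeing the windows, it was found in 4 windows of 3 genes (ACTA2, LMOD1 and CALD1) and in 18.86% of all promoters, and the ACTA2 and LMOD1 windows printed here hold 2 such matches each. MCAT was found in 5 windows of 4 genes (ACTA2, LMOD1, CALD1 and MYPN) and in 14.03% of all promoters. The windows of TPM1, TPM2 and CNN1 held none. All genes with a window except CNN1 were called lower with overexpression, so the matches are not tied to that call. A match is a description of the letters and not a binding site. The windows of ACTA2, LMOD1 and MYPN are shown because they belong to smooth muscle actin, the smooth muscle leiomodin and the gene with the largest fold called lower, with CATTCC or its reverse complement GGAATG in capitals. They are chr10:88952724-88953023 on the minus strand, chr1:201946499-201946798 on the minus strand and chr10:68109238-68109537 on the plus strand, each written 5′ to 3′ along the gene.
ACTA2: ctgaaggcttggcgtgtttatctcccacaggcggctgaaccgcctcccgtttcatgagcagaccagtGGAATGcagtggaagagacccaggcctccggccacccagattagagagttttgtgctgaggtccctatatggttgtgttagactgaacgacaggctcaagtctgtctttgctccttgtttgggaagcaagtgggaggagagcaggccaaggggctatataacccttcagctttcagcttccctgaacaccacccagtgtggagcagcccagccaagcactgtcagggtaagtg
LMOD1: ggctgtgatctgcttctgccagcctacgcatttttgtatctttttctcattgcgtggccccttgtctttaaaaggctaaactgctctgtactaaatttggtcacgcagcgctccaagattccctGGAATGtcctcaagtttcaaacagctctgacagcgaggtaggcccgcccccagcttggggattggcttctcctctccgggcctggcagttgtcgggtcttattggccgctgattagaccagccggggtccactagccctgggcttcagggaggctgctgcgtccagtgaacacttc
MYPN: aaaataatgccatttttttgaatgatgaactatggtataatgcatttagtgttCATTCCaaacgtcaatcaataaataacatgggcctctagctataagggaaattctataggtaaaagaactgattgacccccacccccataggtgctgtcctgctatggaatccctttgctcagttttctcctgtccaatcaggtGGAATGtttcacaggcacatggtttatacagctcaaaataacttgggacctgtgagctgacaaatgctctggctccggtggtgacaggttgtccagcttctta
Counted from the start, the match of ACTA2 begins at base -183 and that of LMOD1 at base -126, and the window of MYPN holds 2 matches.

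The other contractile genes were taken from 6 lists with 119 genes in all, some of them in more than 1 list. With overexpression 90 were tested, 16 were called lower and 17 higher, with a median log2FC of -0.34. That is 36.7% called, beside 18.6% of all genes. Of the 17 called higher, 7 reached the minimum count in both ZMYND8 OE libraries but not in both parental libraries. Without regard to the fold, 51 were lower and 24 higher at an adjusted p below 0.05, a level that 60.8% of all genes reached. With knockdown 87 were tested, 0 were called lower and 3 higher, or 3.45% beside 1.96% of all genes. Of the 3 called higher, 1 reached the minimum count only in ZMYND8 KD libraries. In that comparison 43 had an unadjusted p below 0.05, or 49.4% beside 36.1% of all genes, and DESeq2 also called 0 lower and 3 higher. These lists were chosen with results of the same libraries known, and the counts are not independent evidence of a direction.

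Of 12 genes tested from the smooth muscle contractile list, 4 were called lower and 1 higher with overexpression. That is 41.7% called, beside 18.6% of all genes, and the median log2FC was -0.88. Without regard to the fold, 9 were lower and 2 higher at an adjusted p below 0.05, beside 60.8% of all genes. MYLK, the kinase that phosphorylates the myosin light chain, fell from 796 and 826 CPM to 75.6 and 69.5 CPM (log2FC -3.47 ± 0.0609, edgeR adjusted p = 3.39e-11). In KD control libraries MYLK stood at 253 and 259 CPM. CSRP1, a LIM protein of actin bundles, fell by 1.78 on the log2 scale (± 0.0589, edgeR adjusted p = 1.73e-09). Vinculin (VCL), which ties actin to adhesions, fell by 1.59 (± 0.0583, edgeR adjusted p = 3.74e-09) and the actin crosslinker ACTN1 by 1.40 (± 0.0670, edgeR adjusted p = 2.68e-08). ITGA8, an integrin of smooth muscle and mesenchyme, rose from 2 and 0 counts to 216 and 198 (edgeR adjusted p = 1.29e-07). ITGA8 reached the minimum count only in ZMYND8 OE libraries. It could thus enter the test only where it was high, and no weight is put on its p. The defining markers MYH11 and KCNMB1 were at or near 0, with 1 count of MYH11 in all 8 libraries together and none of KCNMB1.

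Of 14 paralogs tested, 1 was called lower and 0 higher with overexpression, or 7.14% beside 18.6% of all genes. The median log2FC was -0.65, and 10 were lower and 1 higher at an adjusted p below 0.05, beside 60.8% of all genes. The paralog called was the light chain MYL12A, with a log2FC of -1.05 ± 0.0548 (edgeR adjusted p = 5.07e-08), and it lost the call at -0.98 under upper quartile normalization and at -0.99 without ZMYND8 OE replicate 2. Cytoplasmic actins were lower by less than the fold threshold, with a log2FC of -0.75 ± 0.0820 for ACTB (edgeR adjusted p = 1.76e-05) and -0.69 ± 0.0630 for ACTG1 (edgeR adjusted p = 4.41e-06). With knockdown their log2FC was 0.10 (edgeR adjusted p = 0.380) and 0.03 (edgeR adjusted p = 0.802).

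All 14 genes of the SRF axis were tested, and with overexpression 6 were called lower and 2 higher. That is 57.1% called, beside 18.6% of all genes. Without regard to the fold, 7 were lower and 4 higher at an adjusted p below 0.05, beside 60.8% of all genes. The matrix-associated genes CCN2 and CCN1, targets of SRF and of YAP and TEAD, fell by 2.05 (± 0.172, edgeR adjusted p = 2.25e-06) and fell by 1.95 (± 0.147, edgeR adjusted p = 9.80e-07) on the log2 scale. ANKRD1, another such target, fell by 2.00 (± 0.242, edgeR adjusted p = 4.02e-05). It had 8.50 and 7.99 CPM in parental libraries but 75.7 and 68.2 in KD control. The 2 ZMYND8 OE libraries differed for ANKRD1, with 146 and 58 counts, and its log2FC was -2.63 without ZMYND8 OE replicate 1 and -1.59 without replicate 2. Nonmuscle myosin MYH9 fell by 1.67 (± 0.0575, edgeR adjusted p = 2.35e-09). KLF4, which represses smooth muscle genes, rose from 1.22 and 1.41 to 4.16 and 4.23 CPM (log2FC 1.67 ± 0.174, edgeR adjusted p = 1.22e-05). SRF had a log2FC of -0.52 ± 0.0582 (edgeR adjusted p = 2.03e-05), below the fold threshold. Its coactivators MRTFA (-0.17 ± 0.0778, edgeR adjusted p = 0.0771) and MRTFB (-0.02 ± 0.0477, edgeR adjusted p = 0.762) did not pass the test. With knockdown SRF, MRTFA and MRTFB had log2FC of 0.01, 0.07 and -0.04, none past the test.

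Of the 17 genes that control contraction, 2 were called lower and 1 higher with overexpression, or 17.6% beside 18.6% of all genes. Without regard to the fold, 12 were lower and 2 higher at an adjusted p below 0.05, beside 60.8% of all genes. Besides MYLK, the noncoding RNA CARMN, known from smooth muscle, fell from 4.19 and 5.22 to 1.78 and 2.34 CPM (log2FC -1.19 ± 0.187, edgeR adjusted p = 2.71e-04), and its call was lost without ZMYND8 OE replicate 1. PPP1R14A, which inhibits myosin phosphatase, rose from 0.377 and 0.503 to 1.86 and 1.93 CPM (log2FC 2.10 ± 0.257, edgeR adjusted p = 4.34e-05). RHOA, ROCK1 and ROCK2, the switch and kinases that hold contraction on, were among the 14 not called, with log2FC of -0.25, -0.45 and -0.35.

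Of the 41 sarcomere genes, 21 had enough counts to be tested, and 11 were called higher and 1 lower with overexpression. That is 57.1% called, beside 18.6% of all genes. Of the 11, 5 (ACTN2, MYBPC2, MYBPC3, MYOZ1 and TNNI3) reached the minimum count in both ZMYND8 OE libraries but not in both parental libraries. These 5 genes could enter the test only through the group where they were high, and no weight is put on the count or on their p. NEBL, a nebulin-like protein also expressed outside striated muscle, rose from 11.7 and 13.8 to 113 and 129 CPM (log2FC 3.24 ± 0.0882, edgeR adjusted p = 4.67e-10). In KD control libraries, without overexpression, NEBL stood at 134 and 148 CPM. Several others that rose had few counts. MYBPC2 went from 0 and 0 counts in parental cells to 57 and 77 in ZMYND8 OE cells (at least 21-fold higher, edgeR adjusted p = 1.03e-05), and MYBPC3 from 0 and 0 to 45 and 47 (at least 14-fold higher, edgeR adjusted p = 1.27e-05). Both encode myosin-binding proteins of striated muscle. ACTN2, the Z-disc actinin, went from 4 and 3 to 43 and 40 counts (log2FC 3.48 ± 0.423, edgeR adjusted p = 4.09e-05), and the troponin TNNI3 from 6 and 10 to 57 and 55 (log2FC 2.75 ± 0.337, edgeR adjusted p = 4.22e-05). The calls of ACTN2 and MYBPC3 were lost without either ZMYND8 OE library, and that of MYBPC2 without ZMYND8 OE replicate 2, since the mean count then fell below 20. The gene called lower was NEXN, an actin-binding Z-disc protein (log2FC -1.70 ± 0.147, edgeR adjusted p = 2.91e-06).

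Of 16 genes tested from the nonmuscle actomyosin list, 4 were called lower and 2 higher with overexpression, or 37.5% beside 18.6% of all genes. Without regard to the fold, 13 were lower and 3 higher at an adjusted p below 0.05, beside 60.8% of all genes. Zyxin (ZYX), a protein of adhesions and stress fibres, fell by 2.17 (± 0.0696, edgeR adjusted p = 1.51e-09) on the log2 scale. TES, a LIM protein of the same structures, rose from 24.3 and 22.3 CPM to 78.6 CPM in both ZMYND8 OE libraries (log2FC 1.77 ± 0.0578, edgeR adjusted p = 1.68e-09). In KD control libraries TES stood at 69.2 and 69.0 CPM. The nonmuscle myosin MYH14 went from 0 and 1 to 52 and 35 counts (edgeR adjusted p = 1.26e-05), and its call was lost without either ZMYND8 OE library. MYH14 reached the minimum count only in ZMYND8 OE libraries. It could thus enter the test only where it was high, and no weight is put on its p.

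**Figure D3:**
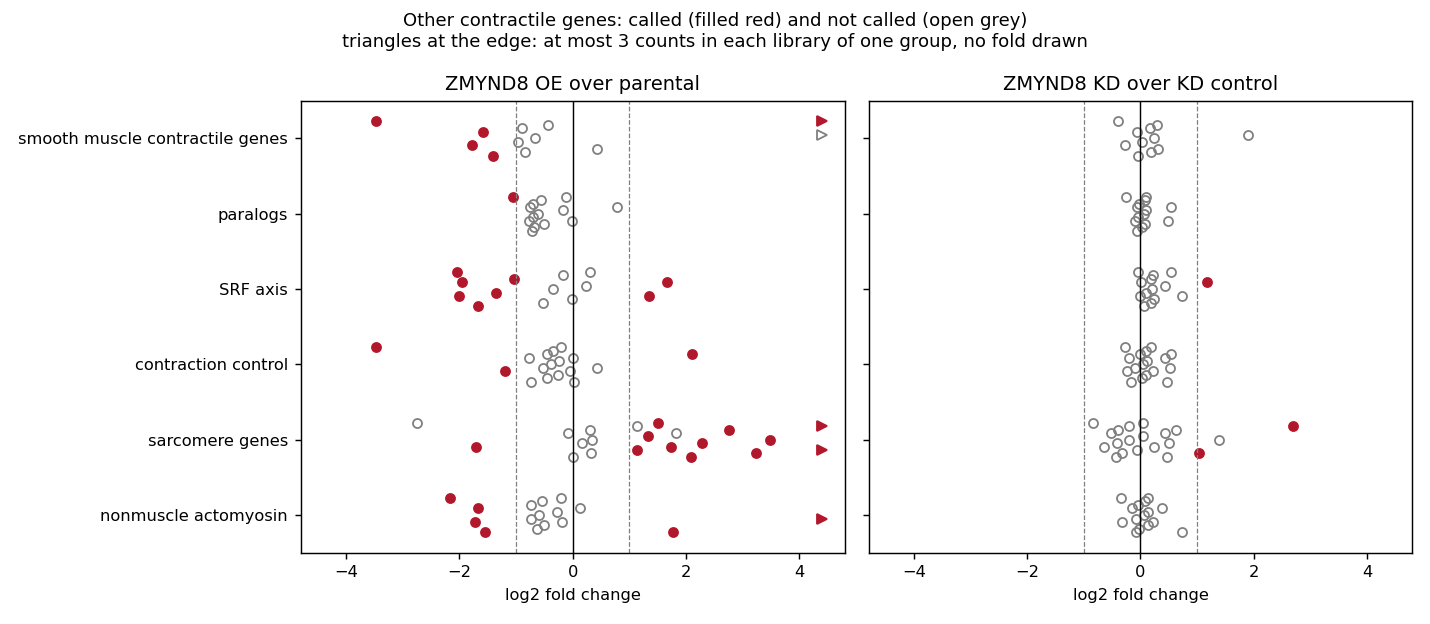
Log2 fold changes of the other contractile genes by list, 1 point per gene, for ZMYND8 OE over parental cells (left) and ZMYND8 KD over KD control cells (right), with called genes filled and dashed lines at the fold threshold of 1. Triangles at the edge mark genes with at most 3 counts in each library of a group, for which no fold is drawn. The left panel has 11 of 21 sarcomere genes called higher, beside 11.8% of all genes. The right panel has 3 genes called in all lists together, or 3.45% beside 1.96% of all genes.

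Markers of cell states also differed in the overexpression comparison. Of the 12 fibroblast and mesenchymal markers, 9 were called lower and 0 higher, beside 6.84% and 11.8% of all genes. Their summed level was 11870.1 to 12801 CPM in parental and 4244 to 4246 CPM in ZMYND8 OE libraries. Of 11 adrenergic markers tested, 8 were called higher and 0 lower, or 72.7% beside 18.6% of all genes. Of the 8, 2 reached the minimum count in both ZMYND8 OE libraries but not in both parental libraries. The summed level of the adrenergic list went from 350.4 and 353 to 1400.2 and 1484 CPM. The part of these marker lists in the lower levels of the contractile genes was not tested. In KD control and ZMYND8 KD libraries the mesenchymal sum was 5061 to 5087 and 6244 to 6563 CPM, and the adrenergic sum 1186 to 1263 and 936 to 1082 CPM. COL1A1, COL3A1, FN1 and VIM made up most of the mesenchymal sum, and its genes were split with knockdown. POSTN was called lower and DCN higher, or 16.7% of the 12 beside 1.96% of all genes. At an adjusted p below 0.05, 3 were lower and 6 higher, beside 24.3% of all genes. ACTA2, TPM1, TPM2, LMOD1, CALD1 and CNN1 were higher in KD control than in parental cells, while the mesenchymal sum was lower there. TAGLN was alike in these 2 groups (1.01-fold), and MYPN was lower in KD control, as the sum was. How these levels relate to the sum was not tested.

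Pericyte markers, of which RGS5 made up most of the counts, summed to 948 to 953 CPM in parental, 1139 to 1181 in ZMYND8 OE, 2099 to 2238 in KD control and 1765 to 1938 in ZMYND8 KD libraries. Of the 6 tested with overexpression, 1 was called lower and 2 higher. The 8 skeletal muscle markers summed to at most 0.799 CPM, none had enough counts to be tested, and MYOG, MYF5 and MYF6 were at 0 in every library. Endothelial markers summed to 1.65 to 4.79 CPM, with 2 of 5 tested called lower and 2 higher with overexpression. That is 80.0% called, beside 18.6% of all genes. The 2 pericyte and 2 endothelial markers called higher reached the minimum count in both ZMYND8 OE libraries but not in both parental libraries.

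**Figure D4:**
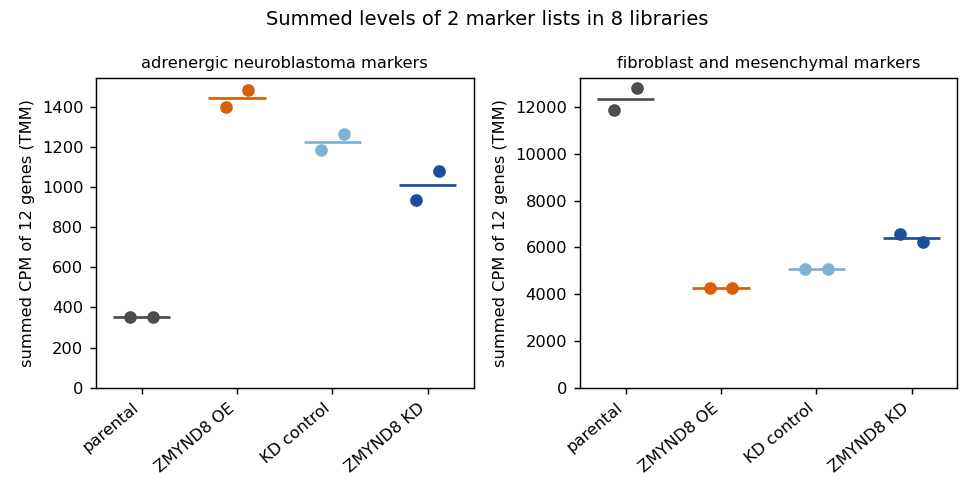
Summed CPM (TMM scaled, axes from 0) of 12 adrenergic markers (left) and 12 fibroblast and mesenchymal markers (right) in the 8 libraries as points, with group means as lines. Parental libraries are lowest in the left panel, at 350.4 to 353 CPM, and highest in the right panel, at 11870.1 to 12801 CPM.

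With knockdown none of the contractile genes reached the thresholds. Of the 10 genes 8 were tested, and 0 were called lower (0.596% of all 19789 genes tested) and 0 higher (1.36%). An adjusted p below 0.05 in edgeR, without regard to the fold, was reached by 5 of them, LMOD1 lower and TPM1, CNN1, CALD1 and MYPN higher, beside 24.3% of all genes tested, and the count at an unadjusted p below 0.05 was also 5. TPM1 stayed below 0.05 under all 15 alternatives, whereas LMOD1, CNN1 and MYPN were above it in 5 alternatives each and CALD1 in 8, always including some with 1 library left out. The alternatives refit the same libraries, and the genes were chosen with earlier results known. These counts are a description, and nothing is read from them. DESeq2 called 0 of the 8 at the same thresholds. The libraries did not overlap for 2 genes that were lower (30.9% of all genes) and 4 that were higher (30.8%), and the median log2FC was 0.16 over the 8 genes and -0.01 over all genes. With overexpression, libraries did not overlap for 7 genes that were lower (38.2% of all genes) and 2 that were higher (42.1%). The difference between the effects of overexpression and knockdown was not tested. The ZMYND8 transcript was 1.91-fold lower in the knockdown libraries.

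Other contractile genes that changed with knockdown were ANKRD1, XIRP2 and TTN. ANKRD1 rose from 75.7 and 68.2 to 164 and 162 CPM (log2FC 1.18 ± 0.0572, edgeR adjusted p = 6.49e-07). XIRP2, an actin-binding protein of striated muscle, rose from 7 and 10 to 58 and 50 counts (log2FC 2.70 ± 0.332, edgeR adjusted p = 2.39e-04). XIRP2 reached the minimum count only in ZMYND8 KD libraries. It could thus enter the test only where it was high, and no weight is put on its p. Titin (TTN) rose from 91 and 94 to 214 and 153 counts (log2FC 1.04 ± 0.196, edgeR adjusted p = 0.00331), and the call was lost without ZMYND8 KD replicate 1, at a log2FC of 0.77.

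Contractile genes also differed between the groups used as controls. KD control means were 4.0-fold higher for TPM2, 2.74-fold for CNN1, 1.37-fold for LMOD1, 1.32-fold for CALD1, 1.19-fold for ACTA2 and 1.16-fold for TPM1. TAGLN was alike in level (1.01-fold) with overlapping libraries, and MYPN was 2.90-fold higher in parental cells. The labels give Dox to the parental cells and a control knockdown to the KD control cells, and these and any other difference in handling cannot be told apart, so no test was made. The fold between the controls was larger than the knockdown fold for TPM2, CNN1, MYPN, CALD1 and ACTA2.

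Patterns over the 8 libraries were compared with 13550 genes of higher counts by Pearson's r of log2 CPM, as a description over 4 groups of 2 libraries. The most alike were BAG3 for ACTA2 (r = 1.00), PDP1 (0.999) and PDLIM1 (0.998) for TPM1, UBE2G1 (0.999) for TPM2 and CANX (0.995) for LMOD1. CNN2, a paralog of calponin, was most like TAGLN (0.995), and SIRPA was most like CNN1 (0.996). TOR1AIP2 (0.999) came first for CALD1, CACNA1H (0.999) for MYOCD, and BAG2 and PALLD (both 0.998) for MYPN. PALLD encodes palladin, a relative of myopalladin, and it had a log2FC of -0.62 ± 0.0496 with overexpression (edgeR adjusted p = 1.56e-06), below the fold threshold.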

How the data were processed

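The authors deposited raw counts per gene without normalization. The methods name Trim_Galore for trimming, Hisat2 for the alignment to GRCh38, and featureCounts with GENCODE release 28 for counting, and the strand setting is not given in the sources used here. Of 60662 lines, 3 that belong to 1 gene split over lines were left out. Symbols and exon overlaps came from GENCODE release 44 (60462 of 60659 identifiers).

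Samples were grouped by the treatments in the labels, and columns were matched by the names in the sample titles. Each comparison was filtered with filterByExpr and scaled with TMM, and the quasi-likelihood test, two-sided, was run in edgeR 4.0.16 (limma 3.58.1, R 4.3.3) on its own 4 libraries, with p adjusted over all genes tested. Folds against groups at 0 used a floor of 3 counts per library. The members, the lists and the tests were chosen with earlier results of these data known. Named genes were the 10 genes, ZMYND8, ACTB, ACTG1, SRF, MRTFA and MRTFB, up to 5 called genes per list with the largest change, and the genes most alike over the libraries. NEXN, MYOZ1, MYL12B, RHOA, ROCK1 and ROCK2, MYH11, KCNMB1, the overlapping genes and the cell state markers named singly were named after their values were seen. Some items that this rule or the lists name are not reported here.

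No replicates agreed within counting noise (chi-square per degree of freedom 5.52 to 7.97). On simulated counts, 188 of 200 changed genes and 2 unchanged ones of 20553 tested were called for overexpression, and 195 of 200 and 5 of 19771 for knockdown. The simulated dispersion was 0.03, and all changes were set above the fold threshold, in genes above the count threshold. The simulation therefore cannot speak to calls near either threshold. Alternatives were RLE and upper quartile scaling, DESeq2 1.42.0, no filter, other thresholds, 1 fit of all 8 libraries, the replicate number as a block, a gene length correction and leaving out each library, and a length and GC correction was added after seeing the data.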

Additional observations from a re-analysis of the deposited data

How the results depend on the processing

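The 7 genes called lower with overexpression were called lower under every alternative run, and the 0 called with knockdown changed only without the fold threshold. At a mean count above 100, overexpression called 2331 of all genes in place of 3876, 0 members higher in place of 1 and 8 other contractile genes higher in place of 17, and knockdown called 174 in place of 388. Without the fold threshold, overexpression called 11332 genes, 50 of them other contractile genes that were lower in place of 16. Knockdown then called 4707 genes, with 1 member lower, 4 members higher, and 8 other contractile genes lower and 21 higher in place of 0 and 3. Leaving out 1 library at a time gave 3638 to 4113 genes called with overexpression and 343 to 462 with knockdown, and 0 to 1 members called higher with overexpression, since MYOCD lost its call without ZMYND8 OE replicate 1 or replicate 2. Other contractile genes called then numbered 14 to 17 lower and 13 to 18 higher with overexpression. DESeq2 called 3553 and 263 genes, 3533 and 262 of them shared with edgeR. Upper quartile scaling, DESeq2 and no filter set the median log2FC of all genes with overexpression to 0.11, 0.13 and 0.14 instead of 0.03, and the 7 lower and 1 higher calls among the members stayed. Replicate numbers in the labels mark no shared culture, and deviations of same-numbered libraries correlated at 0.06 with overexpression and 0.14 with knockdown. The replicate block gave 3886 and 393 called genes, with 8 and 0 members, and changed no call of a member. TTN with knockdown was at 0.93 with the gene length trend taken out, below the fold threshold. Low counts limit MYOCD, CNN1, MYPN in ZMYND8 OE cells and most sarcomere genes.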
